A study of Mus musculus with 220 samples.

Results

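The genes of the cell cycle and of mitosis were followed in the livers of hyperlipidemic mice as a set of 35 genes, chosen by name as markers of DNA replication, mitotic entry, chromosome segregation and cytokinesis. A gene was included where a probe set carried its symbol alone, and the brightest such probe set by its mean represented the gene. This left 34 of the 35 genes, of 17097 genes measured in all. Cyclin B1 (Ccnb1) had no such probe set and is not described. The values are log2 RMA values, the log2 signal of a probe set after background correction, quantile normalization and summary of its probes, and levels are not compared between genes, since probe sets differ in their affinity.

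Livers came from 220 female F1 mice, each on its own array. The mothers belonged to 96 inbred or recombinant inbred strains, and the fathers were C57BL/6J males with human transgenes for APOE-Leiden and CETP, so that every group shared both transgenes and the paternal C57BL/6J genome and differed in what came from the mother. All mice ate chow for 8 weeks and then a Western diet, enriched in cholesterol, for 16 weeks, and were 24 weeks old at collection, and there was no group without the transgenes or without the diet. The group was the maternal strain, with 1 mouse in 9 strains, 2 in 51, 3 in 35 and 4 in 1 strain. Strains fell into 5 panels by name: 34 BXD strains (83 mice) from C57BL/6J and DBA/2J, 21 AXB/BXA strains (47 mice) from A/J and C57BL/6J, 8 CXB strains (17 mice) from BALB/c and C57BL/6J, 4 BXH strains (8 mice) from C57BL/6J and C3H, and 29 classical inbred strains (65 mice). The BXD group labelled BXD24/TyJ-Cep290<rd16>/J (n = 3) has the rd16 allele of Cep290 in its strain name. The copy number and position of the transgenes, litters, cages and collection days were not found in the labels or methods, and mice of a strain may share them. The defining hepatocyte transcripts were near the top of the scale, with means of 13.52 for albumin (Alb), 13.28 for Apoa1 and 13.05 for transthyretin (Ttr). The correlation of an array with the mean array had a median of 0.995 and a lowest value of 0.987, in BXD55/RwwJ mouse 1.

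In a dividing cell, cyclins bind cyclin-dependent kinases and drive the passage from growth to DNA replication and on to mitosis. Genes of replication are switched on before S phase through E2F factors, and genes of mitosis are repressed in resting cells by the DREAM complex and activated later by B-Myb and FoxM1, through promoter elements named the cell cycle genes homology region (CHR) and the CCAAT box. Hepatocytes of the adult liver are mostly at rest and can re-enter the cycle after loss or injury of tissue, while Kupffer cells, infiltrating leukocytes, cholangiocytes, endothelial cells and stellate cells can divide as well. In whole liver, a lower number of dividing cells and less RNA of these genes per cell cannot be told apart.

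Promoters were examined because the members varied together across strains. RefSeq promoters (GRCm38.p6, 250 bases before to 50 after the start site) were given for 27 of the 34 genes. The CHR was searched as TTTGAA or its variants, which were TTCGAA and also CTTGAA and further TTTAAA. The CCAAT box was searched by the letters of its name. The E2F site was searched as TTTGGCGC, or with other middle bases as TTTGCCGC, or again as TTTCGCGC, or finally as TTTCCCGC, each on both strands. A CHR was found in 22 of the 27 promoters (81.5%), against 37.3% of all 32851 promoters of this length. A CCAAT box was found in 22 of 27 (81.5%), against 37.4% of all promoters, and both elements together in 20 of 27 (74.1%), against 14.5%. An E2F site was found in 4 of 27 (14.8%), against 2.26%, and these were Cdk1, Mcm3, Mcm5 and Mcm6. The replication genes Mcm3 and Mcm6 held a CCAAT box without a CHR, Birc5 and Kif2c held a CHR alone, and Mad2l1, Nusap1 and Tyms held none of these letters in this window. A match in letters is a description and does not show binding.

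The promoters of the 4 members with a CHR and a CCAAT box that followed the rest of the set most closely are shown, with the matched letters of any of the motifs in capitals, 5′ to 3′ on the strand of the gene. Cdk1 lies on the minus strand at chr10:69352863-69353162, Top2a on the minus strand at chr11:99024140-99024439, Ube2c on the plus strand at chr2:164769679-164769978 and Mki67 on the minus strand at chr7:135716330-135716629.
Cdk1: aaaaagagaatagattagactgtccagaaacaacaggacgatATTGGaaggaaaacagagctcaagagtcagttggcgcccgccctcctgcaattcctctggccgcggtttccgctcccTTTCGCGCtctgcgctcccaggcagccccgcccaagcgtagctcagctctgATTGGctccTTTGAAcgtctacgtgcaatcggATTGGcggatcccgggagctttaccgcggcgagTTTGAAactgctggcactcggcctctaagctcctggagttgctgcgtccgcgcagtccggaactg
Top2a: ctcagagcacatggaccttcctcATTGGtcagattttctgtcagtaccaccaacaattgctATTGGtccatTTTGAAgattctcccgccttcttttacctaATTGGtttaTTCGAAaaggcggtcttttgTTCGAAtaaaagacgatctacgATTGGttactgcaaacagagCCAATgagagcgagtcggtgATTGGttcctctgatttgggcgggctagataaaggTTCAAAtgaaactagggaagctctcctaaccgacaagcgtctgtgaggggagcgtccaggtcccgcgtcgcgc
Ube2c: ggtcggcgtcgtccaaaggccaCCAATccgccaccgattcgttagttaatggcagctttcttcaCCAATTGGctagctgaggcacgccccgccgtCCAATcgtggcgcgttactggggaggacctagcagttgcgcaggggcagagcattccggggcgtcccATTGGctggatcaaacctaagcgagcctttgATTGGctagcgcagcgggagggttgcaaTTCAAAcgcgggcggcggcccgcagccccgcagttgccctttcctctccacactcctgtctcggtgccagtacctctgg
Mki67: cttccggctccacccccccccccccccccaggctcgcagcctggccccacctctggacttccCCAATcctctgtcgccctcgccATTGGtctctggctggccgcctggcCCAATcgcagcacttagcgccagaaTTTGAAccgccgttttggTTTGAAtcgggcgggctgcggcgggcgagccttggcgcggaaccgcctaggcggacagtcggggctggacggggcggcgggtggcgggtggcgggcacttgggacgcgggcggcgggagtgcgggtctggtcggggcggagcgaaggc
The Cdk1 promoter held 3 CCAAT boxes, 2 CHRs and 1 E2F site, and Top2a held 6 CCAAT boxes and 4 CHRs, the most of any member with a promoter in the table. Ube2c held 6 CCAAT boxes and 1 CHR, with one pair of boxes sharing letters on opposite strands, and Mki67 held 3 and 2.

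Maternal strain was the first comparison, in 211 mice from 87 strains, leaving out strains with a single mouse. Of the 34 genes, 32 differed between strains by limma's moderated F-test (adjusted p under 0.05, adjusted by Benjamini-Hochberg over 45037 probe sets), against a background of 59.2% of all genes. The exceptions were cyclin E2 (Ccne2, adjusted p = 0.881) and Foxm1 (adjusted p = 0.557), both among the 6 members below the median signal of all probe sets. Among the brighter genes, 28 of 28 members were called, and so were 87.1% of all genes above that median, so that the count among the brighter members lay near its background. The spread was wide. The SD of strain means had a median of 0.367 over the members against 0.139 over all genes and 0.177 over the brighter genes, on the log2 scale. The SD among mice of a strain was wide as well, with a median of 0.329 against 0.156, and the share of variance that lay between strains was 0.443 in the median member against 0.251 in all genes and 0.423 in the brighter ones. These medians are descriptions without a test.

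**Figure D1:**
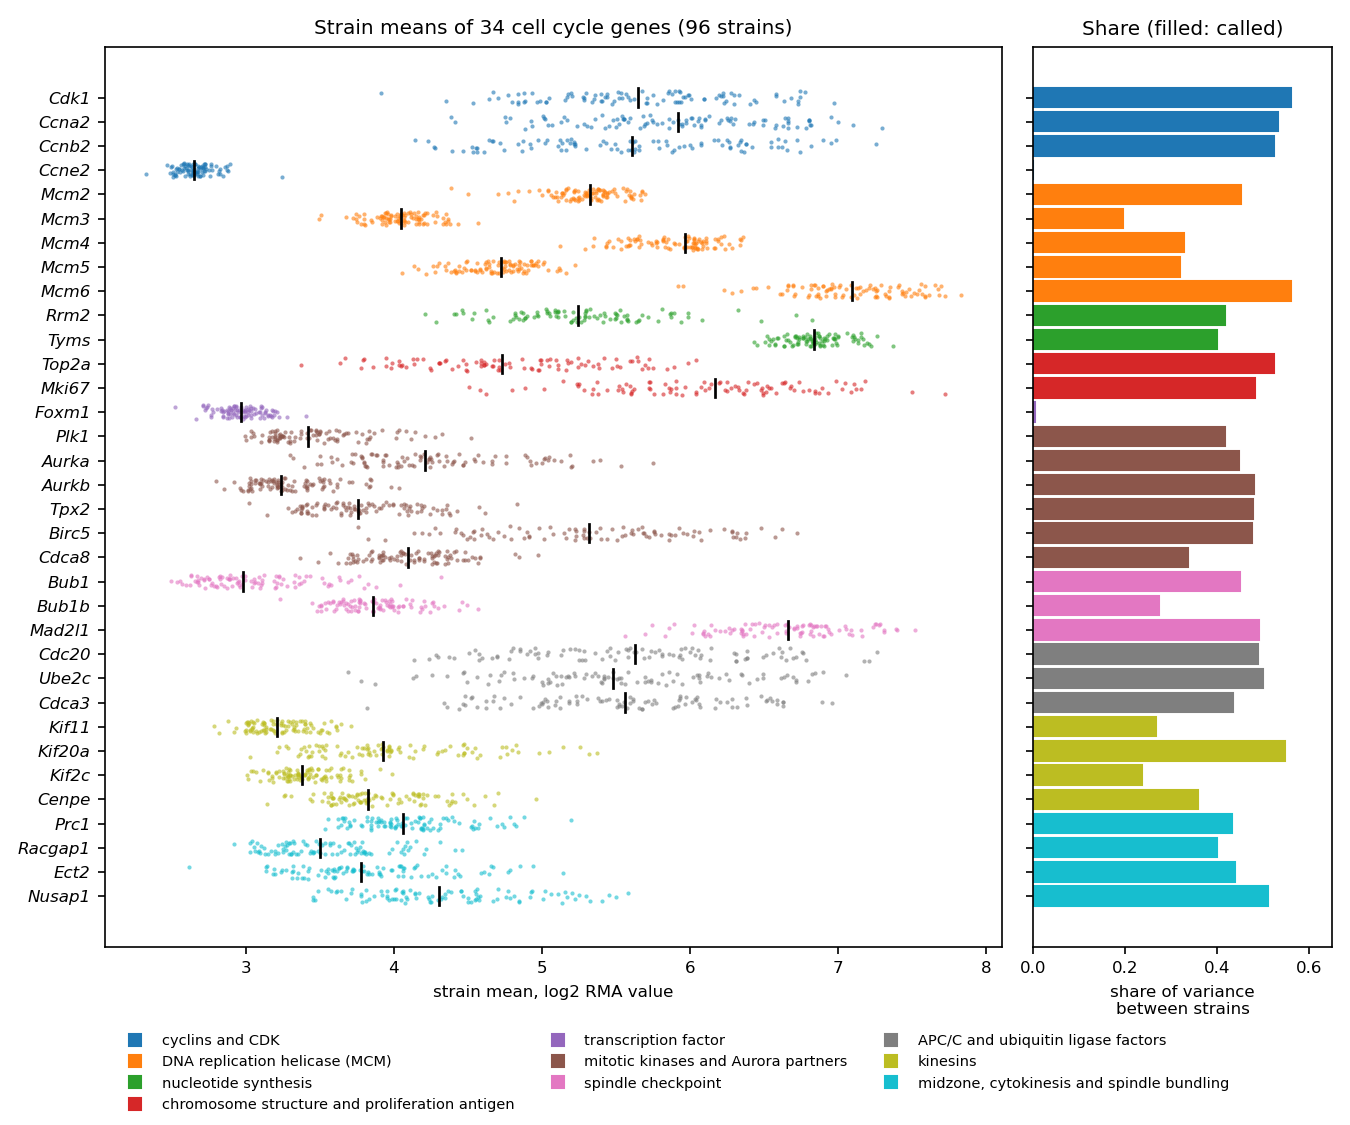
Left: each point is the mean of 1 of 96 strains (log2 RMA value), colored by the role of the gene, with a black bar at the median. Right: bars give the share of variance between strains, filled where the gene was called. Cdk1, Ccna2, Ccnb2, Mki67, Birc5, Cdc20, Ube2c and Cdca3 had the widest spread, and Ccne2 and Foxm1 had shares of 0 and 0.0039.

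The mitotic cyclins and their kinase showed some of the widest ranges. Cdk1, the kinase that starts mitosis, had values from 3.40 to 7.32 over single mice with a median of 5.62. Its strain means ran from 3.91 in BXD55/RwwJ (n = 3) to 6.98 in CXB8/HiAJ (n = 3), an 8.35-fold span, and 0.562 of its variance lay between strains (adjusted p = 5.26e-13), more than in 85.2% of all genes. Cyclin A2 (Ccna2), which pairs with CDKs in S phase and at mitotic entry, ran from 4.38 in BXD50/RwwJ to 7.30 in CXB12/HiAJ with a share of 0.533 (adjusted p = 1.01e-11). Cyclin B2 (Ccnb2) ran from 4.14 in BXD50/RwwJ to 7.26 in CXB8/HiAJ with a share of 0.524 (adjusted p = 2.28e-11). Cyclin E2, which acts at the start of replication, stayed between 2.32 and 3.25 over strains around a mean of 2.66, and the share of its variance between strains was estimated as 0.

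The MCM genes encode subunits of the helicase that opens DNA at replication origins. All 5 were called, as were 87.1% of all genes above the median signal. Their spans were narrower than those of Cdk1, Ccna2 and Ccnb2. Mcm6 had the widest of the 5 and ran from 5.92 in SWR/J to 7.83 in AXB19b/PgnJ, a 3.76-fold span with a share of 0.560 (adjusted p = 7.97e-13). Mcm2 ran from 4.39 in CXB13/HiAJ to 5.70 in AXB15/PgnJ (share 0.452, adjusted p = 1.96e-08). The lowest strain for Mcm4, at 5.12, and for Mcm5, at 4.05, was again SWR/J, and their shares were 0.329 (adjusted p = 4.38e-05) and 0.320 (adjusted p = 7.22e-05). Mcm3 had the smallest share of the 5, 0.196 (adjusted p = 0.0132), and ran from 3.50 in NOD/ShiLtJ to 4.57 in CXB12/HiAJ. A second probe set of Mcm3 was not called (adjusted p = 0.494), and neither was a dim one of Mcm5 (mean 2.49).

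Of the genes that supply nucleotides, Rrm2, a subunit of ribonucleotide reductase, spanned 6.14-fold, from 4.21 in LG/J to 6.83 in BXA25/PgnJ, where 1 mouse was measured (share 0.417, adjusted p = 1.62e-07). Thymidylate synthase (Tyms) spanned 1.91-fold, from 6.44 in LP/J to 7.37 in BXD34/TyJ, again with 1 mouse at the upper end (share 0.401, adjusted p = 9.65e-07). Its 4 dimmer probe sets, with means from 2.56 to 3.16, were not called. Topoisomerase IIα (Top2a), which untangles sister chromatids, ran from 3.37 in BXD50/RwwJ to 6.04 in AXB19b/PgnJ (share 0.525, adjusted p = 2.22e-11). Dimmer probe sets of Top2a, with means of 2.66 and 3.14, were not called. Mki67, the antigen used to count dividing cells, had a 9.32-fold span between BXD55/RwwJ at 4.50 and CXB12/HiAJ at 7.72 (share 0.483, adjusted p = 9.11e-10). The transcription factor gene Foxm1 had a mean of 2.98, near the floor of the scale, and none of its 4 probe sets was called.

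Mitotic kinases and the partners of the Aurora kinases were all called, 6 of 6. The background was 59.2% of all genes and 87.1% of those above the median signal. Birc5 (survivin), a subunit of the chromosomal passenger complex, had the widest range of the group, from 3.75 in BXD55/RwwJ to 6.73 in CXB12/HiAJ (share 0.476, adjusted p = 1.70e-09). Aurora A (Aurka) ran from 3.30 in BXD75/RwwJ to 5.75 in BXD61/RwwJ (share 0.447, adjusted p = 1.74e-08), and Tpx2, its activator on the spindle, from 3.02 in BXD75/RwwJ to 4.83 in CXB12/HiAJ (share 0.479). The shares of Aurora B (Aurkb), Polo-like kinase 1 (Plk1) and borealin (Cdca8) were 0.480, 0.417 and 0.336, with adjusted p-values of 2.35e-09, 1.86e-07 and 2.75e-05. Plk1 was lowest in CXB13/HiAJ at 2.99 and highest in CXB12/HiAJ at 4.52, so that both ends lay in the CXB panel.

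The spindle checkpoint holds anaphase until every chromosome is attached. Mad2l1 had a mean of 6.62 and ran from 5.57 in LP/J to 7.52 in CXB8/HiAJ (share 0.491, adjusted p = 5.43e-10). Bub1 ran from 2.49 in SWR/J to 4.32 in BXA25/PgnJ, with 1 mouse in the latter (share 0.451, adjusted p = 1.61e-08). Its probe set had a mean of 3.06, below the median signal, and a dimmer one (mean 2.82) was not called. Its relative Bub1b had a share of 0.274 (adjusted p = 5.93e-04). Genes of the ubiquitin machinery of mitosis were among the most variable of all 34. Ube2c, the conjugating enzyme of the anaphase-promoting complex, had the widest span of any member, 10.3-fold, from 3.69 in BXD50/RwwJ to 7.06 in CXB8/HiAJ (share 0.499, adjusted p = 2.26e-10). Cdc20, an activator of that complex, ran from 4.14 to 7.26 between the same 2 strains (share 0.488, adjusted p = 6.00e-10), and Cdca3, which triggers mitotic entry, from 3.82 to 6.96, also between these (share 0.435, adjusted p = 4.01e-08).

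**Figure D2:**
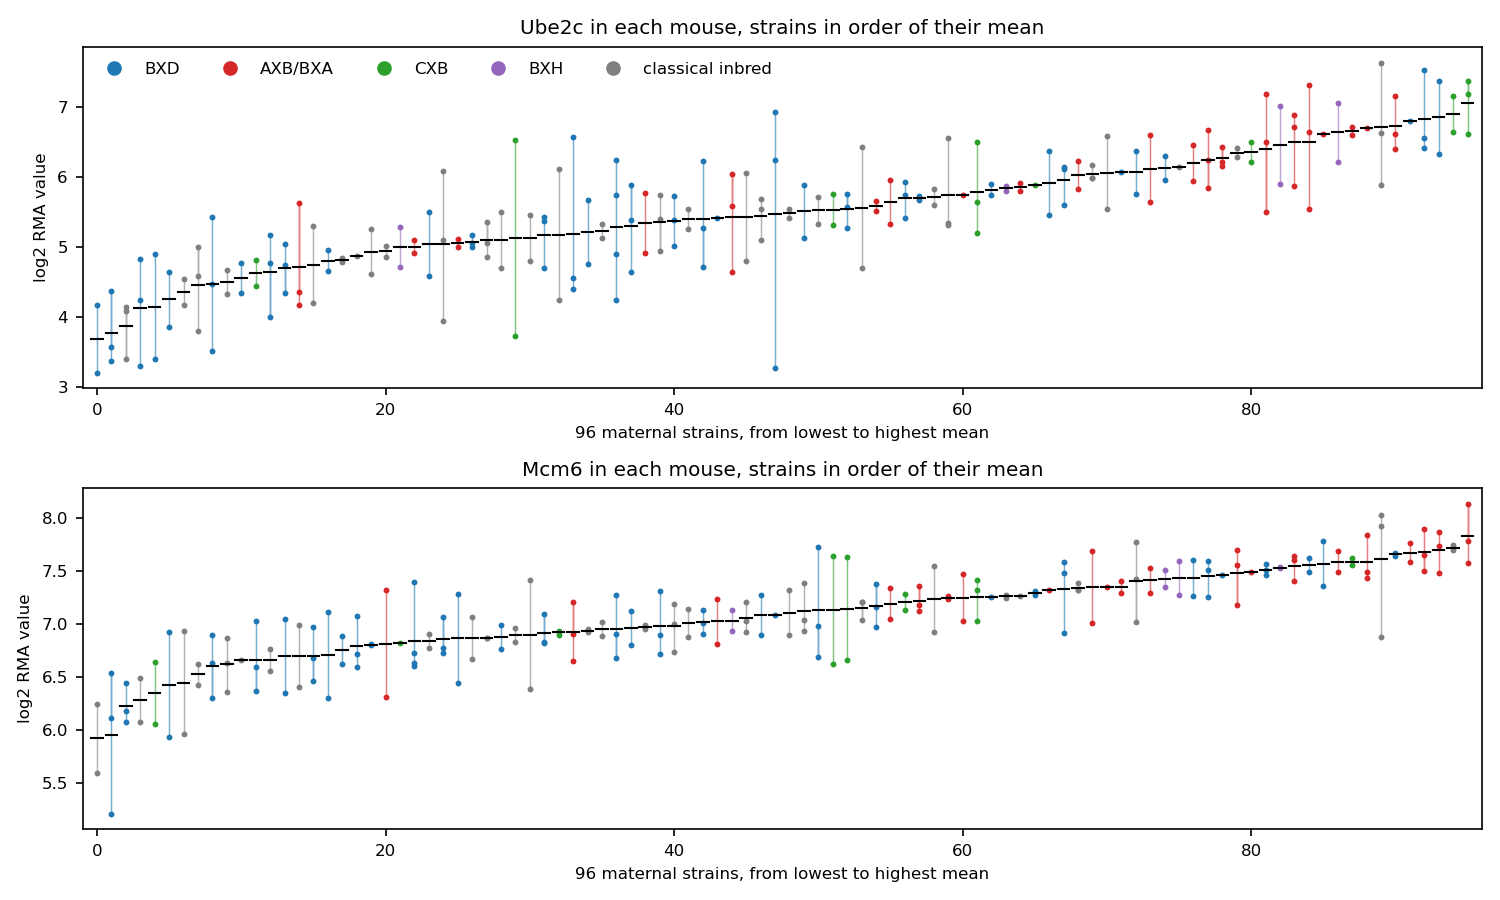
Each point is the log2 RMA value of 1 mouse, lines join mice of a strain and are colored by panel, black bars are strain means, and each plot has its strains in order of their own mean, for Ube2c (top) and Mcm6 (bottom). Ube2c strain means run from 3.69 to 7.06, and the widest strain, BXD18/TyJ, has mice at 3.28, 6.24 and 6.92.

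The motor proteins of the spindle and the genes of cytokinesis made up the remaining 8 members. All 8 were called, against 59.2% of all genes and 87.1% of those above the median signal. Kif20a, a kinesin of the central spindle, had a share of 0.548 (adjusted p = 2.47e-12) and ran from 3.03 in FVB/NJ to 5.37 in CXB12/HiAJ. Cenpe, a kinetochore motor, ran from 3.14 to 4.96 (share 0.359, adjusted p = 7.24e-06). The kinesins Kif11 and Kif2c had means of 3.23 and 3.40, under the median signal of 3.46, with shares of 0.268 (adjusted p = 9.28e-04) and 0.238 (adjusted p = 0.0030). Nusap1, which bundles spindle microtubules, ran from 3.45 in BXD50/RwwJ to 5.59 in BXD61/RwwJ (share 0.511, adjusted p = 8.91e-11). Dimmer probe sets of Kif11 (mean 2.74) and Nusap1 (mean 2.64) were not called. Ect2 and Racgap1, which place the contractile ring, had shares of 0.439 (adjusted p = 3.28e-08) and 0.400 (adjusted p = 5.80e-07), and Prc1, which bundles midzone microtubules, had a share of 0.434 (adjusted p = 5.74e-08). CXB12/HiAJ was the highest strain for Kif11, Kif20a, Cenpe, Prc1, Racgap1 and Ect2.

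The members varied together. Over the 96 strain means, each of the 561 pairs of members had a positive Pearson's r, with a median of 0.74, and 227 pairs had an r above 0.8. The closest pair was Ccna2 and Birc5 (r = 0.97), and Ccnb2 with Cdca3 and Cdc20 with Ube2c both had r = 0.96. Against the mean z-score of the other members, 17 of the 34 had an r of at least 0.9, led by Ccna2 (r = 0.96, Spearman's rho = 0.96), Cdk1 (0.96 and 0.97), Nusap1 (0.96 and 0.96), Top2a (0.96 and 0.96), Birc5 (0.95 and 0.96) and Ube2c (0.95 and 0.96). The replication genes followed less closely, with r = 0.77 for Mcm6, 0.71 for Mcm5, 0.62 for Mcm4, 0.57 for Mcm2 and 0.28 for Mcm3. Ccne2 (0.35) and Foxm1 (0.47), the 2 genes not called, were low as well. Without these 2, the median r was 0.84 among the 27 members that are no MCM gene, 0.57 among the MCM genes and 0.54 between the MCM genes and these 27.

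Members also varied together among mice of one strain. Over the deviations of 211 mice from their strain means, the median r of a pair of members was 0.60, and the r of a member with the mean of the others was 0.92 for Ccna2 and Top2a, 0.91 for Ube2c, 0.90 for Cdk1, 0.70 for Mcm6 and 0.41 for both Mcm2 and Mcm3. These correlations have no p, since the arrays share their normalization and mice share a strain, and dim genes carry more noise. A mean z-score over the 34 genes, called the cell cycle score here, was used to order strains and mice. The share of its variance between strains was 0.507.

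**Figure D3:**
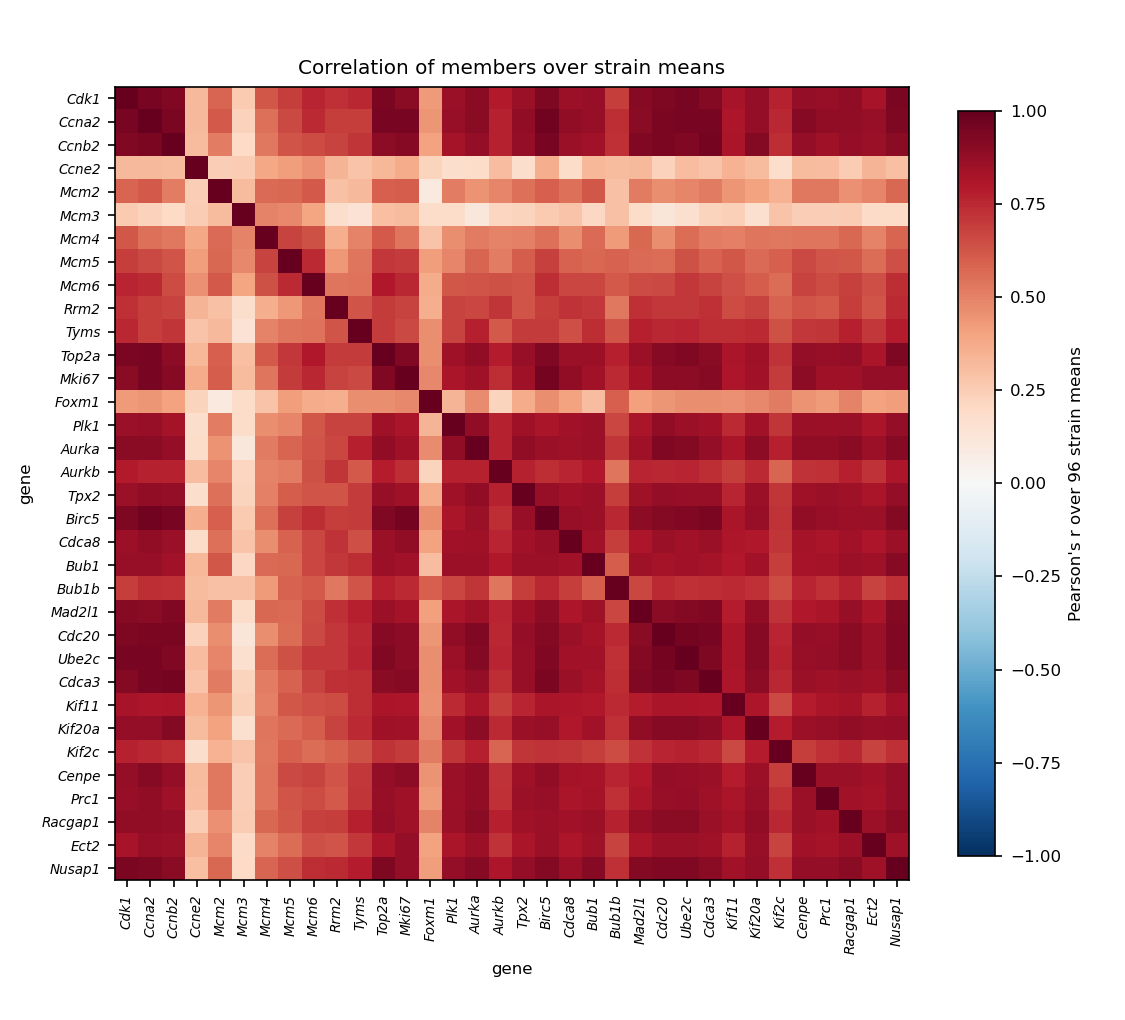
Colors give Pearson's r over 96 strain means for each pair of the 34 genes (red, positive; blue, negative). The 27 genes other than the MCM genes, Ccne2 and Foxm1 have a median r of 0.84, and the rows of Ccne2, Mcm3 and Foxm1 are the palest.

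The tests were next run within each panel. Among the 31 BXD strains with 2 or more mice, 27 of 34 members were called against 42.2% of all genes, led by Aurka (adjusted p = 1.58e-05), Mcm6 (3.87e-05), Ect2 (6.81e-05) and Top2a (7.01e-05). The 27 classical inbred strains gave 23 calls against 45.4%, led by Mki67 (adjusted p = 2.73e-05), Ccnb2 (3.50e-05), Kif20a (7.88e-05) and Tyms (9.64e-05). The 18 AXB/BXA strains gave 20 against 29% of genes, led by Mcm5 (adjusted p = 1.33e-04), Cdk1 (7.48e-04), Mcm4 (0.0026) and Ube2c (0.0053). With a measure of RNA quality as a covariate, the difference between the 3′ and 5′ control probe sets, 5 members were called. Shares of all genes in fits with a covariate are not given. The 7 CXB strains gave 4 calls against 1.95%, Kif20a (adjusted p = 0.0286), Ect2 (0.0360), Plk1 (0.0374) and Mcm2 (0.0386), and 0 with the mouse number as a covariate. Among the 4 BXH strains limma called 0 of 34, against 1.75% of genes. An unadjusted p under 0.05 was reached there by 18 of the 34, against 16.1% of all genes. Mcm3, Foxm1, Ccne2 and Bub1b were called within none of the 5 panels.

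Panels themselves differed. On the 96 strain means, 21 of 34 members differed between the 5 panels (limma's F-test) against 8.72% of all genes. Above the median signal, 18 of 28 members and 1344 of 10474 genes were called. The AXB/BXA, CXB and BXH strains had the higher means and the BXD and classical inbred strains the lower ones. The mean of strain means for Top2a was 5.24 ± 0.53 (SD, n = 21 strains) in AXB/BXA, 5.05 ± 0.66 (n = 8) in CXB, 5.21 ± 0.54 (n = 4) in BXH, 4.64 ± 0.59 (n = 34) in BXD and 4.52 ± 0.50 (n = 29) in the classical strains (adjusted p = 0.0035 by limma). Nusap1 had the smallest adjusted p (0.0027), with means of 4.76 in AXB/BXA, 4.58 in CXB, 4.79 in BXH, 4.24 in BXD and 4.11 in the classical strains. Cdc20 was 6.11 in AXB/BXA, 6.02 in CXB and 6.16 in BXH against 5.39 in BXD and 5.37 in the classical strains (adjusted p = 0.0115). Ranges of strains overlapped between panels for these genes. All 6 kinases and Aurora partners, all 3 checkpoint genes and all 3 genes of the ubiquitin group were called. The others among the first 10 by adjusted p were Bub1b (0.0033), Cdca8 (0.0046), Mcm6 (0.0081), Cdca3 (0.0146), Aurkb (0.0175), Birc5 (0.0177) and Prc1 (0.0181). Mcm2, Mcm3, Mcm4 and Mcm5 were not called, with adjusted p-values of 0.333, 0.975, 0.489 and 0.552. The cell cycle score was above 0 in 16 of 21 AXB/BXA strains, 3 of 4 BXH strains and 5 of 8 CXB strains, against 13 of 34 BXD strains and 8 of 29 classical strains. The test counted each strain as independent. The sister substrains AXB19/PgnJ, AXB19a/PgnJ and AXB19b/PgnJ, with scores of 0.758, -0.056 and 1.18, thus entered separately, and their relatedness was not modelled.

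Each of the 87 strains with 2 or more mice was then compared with the mean of the other strains. Over the 34 members in each of the 87 strains, 116 values were called higher and 119 lower. Of all genes in these strains, 40474 of 1487439 values were higher (2.72%) and 40624 lower (2.73%), dim genes included. The counts of the members lay not far above this background. A member was called in 34 strains, and 5 or more members were called in 1 direction in 19 strains, 8 with higher and 11 with lower values. The 8 strains with the most calls are described, 4 high and 4 low, and in none of them was any member called in the opposite direction. The cell cycle score was highest in CXB12/HiAJ (1.67), BXD61/RwwJ (1.52) and CXB8/HiAJ (1.25) and lowest in BXD55/RwwJ (-1.42), BXD50/RwwJ (-1.15) and BXD5/TyJ (-1.09). With 2 or 3 mice a strain, the number of calls depended on single mice, and each count is followed by the count after leaving out a mouse of that strain where it moved by more than 1.5 times. Shares of all genes are given only for the fit with all mice, all strains and no covariate.

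**Figure D4:**
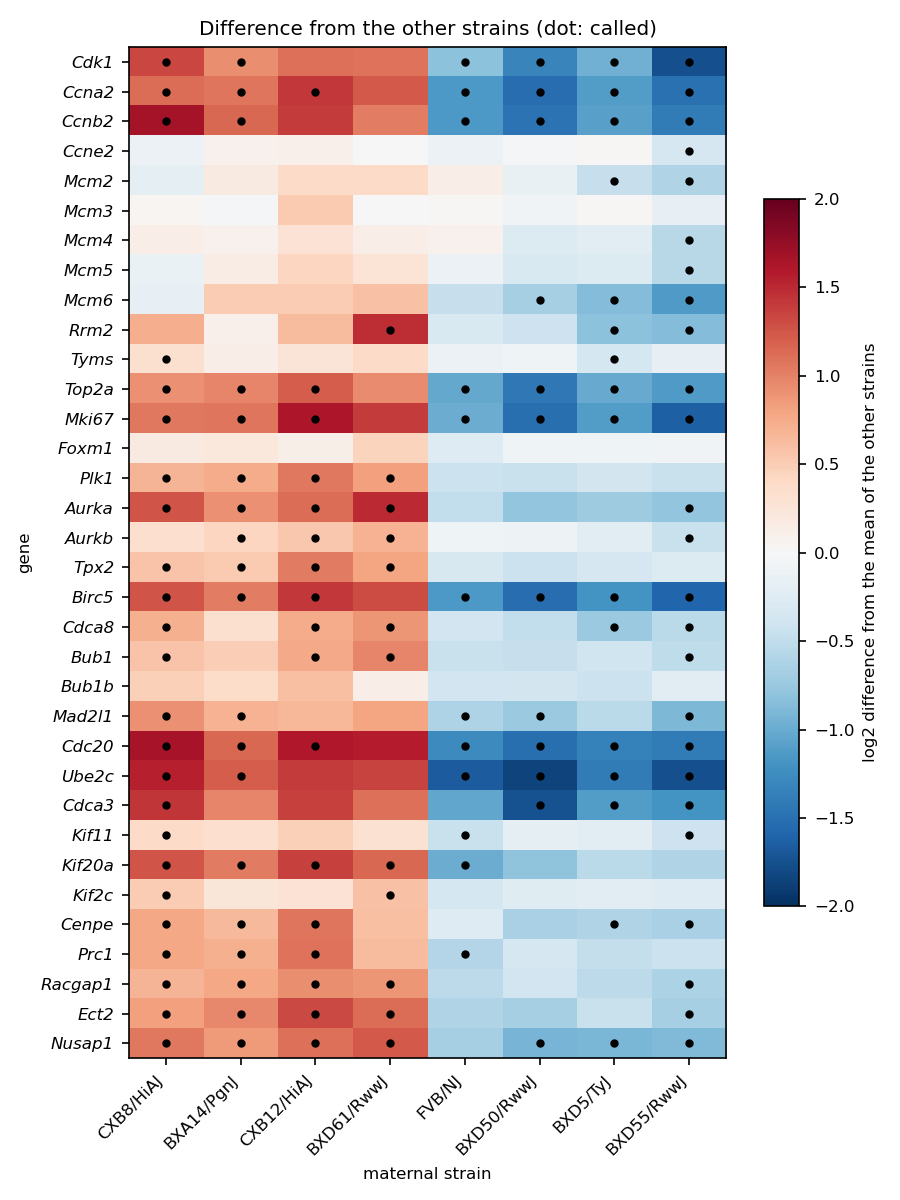
Colors give the difference of a strain from the mean of the other strains (log2, limma; red, higher; blue, lower) for the 34 genes, and a dot marks a call. The 4 strains at the left have higher mitotic genes and the 4 at the right lower ones, while Mcm2 to Mcm5, Ccne2 and Foxm1 carry few dots.

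BXD55/RwwJ had 25 of 34 members lower, against 14.1% of all genes. Cdk1 was 3.40, 4.80 and 3.53 in its 3 mice, 1.76 ± 0.28 (SE) below the other strains on the log2 scale (adjusted p = 1.92e-07 by limma), and Ube2c was 3.58, 4.38 and 3.37. Mki67 was 3.80, 5.64 and 4.07, and mouse 2 was the nearest of the 3 to the mean of all mice, 6.12. Mcm6 was 6.12, 6.54 and 5.21, a difference of -1.14 ± 0.18 (SE, adjusted p = 1.62e-07 by limma), and Mcm2, Mcm4 and Mcm5 were called lower here, the only 1 of the 8 strains with 4 MCM genes called. Without mouse 1 the count was 9, and without mouse 3 it was 15. The correlation with the mean array was 0.987, 0.994 and 0.990 in its 3 mice, against a median of 0.995. The value of mouse 1 was the lowest of all arrays, and the part of this in the calls was not tested.

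BXD50/RwwJ had 12 members lower, against 9.75% of genes. Its mice correlated with the mean array at 0.993 and 0.988, and the part of this in the calls was not tested. Ube2c was 4.17 and 3.21 in its 2 mice (log2 difference -1.85, the largest of any member in the 8 strains), Cdca3 differed by -1.74 and Top2a, at 3.63 and 3.11, by -1.43. Without mouse 2 no member was called. BXD5/TyJ had 16 members lower, against 5.91%, among them Ube2c at 4.82, 4.25 and 3.30 (difference -1.41), Cdc20 at 5.02, 4.06 and 3.81 (-1.34) and Mcm6 at 6.44, 6.18 and 6.07 (-0.86). Without mouse 3 one member was left and without mouse 2 the count was 5. Against the other BXD strains alone it was 3. FVB/NJ, a classical strain, had 12 members lower, against 8.34%, with Ube2c at 4.08, 3.40 and 4.14 (-1.66) and Kif20a at 2.55, 3.11 and 3.42 (-0.99). The count was 3 without mouse 1 or without mouse 2, 5 with RNA quality as a covariate, 1 with the mouse number and 3 against the classical strains alone. MCM genes were not called in FVB/NJ, where Mcm2 was 5.24, 5.54 and 5.51.

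CXB8/HiAJ had 24 members higher, against 4.81% of genes. Ube2c was 7.19, 7.37 and 6.61 in its 3 mice (log2 difference 1.55), Cdc20 was 7.37, 7.51 and 6.91 (1.65) and Ccnb2 differed by 1.67 ± 0.35 (SE, adjusted p = 4.70e-04 by limma). No MCM gene was called: Mcm6 was 6.90, 6.93 and 6.93, close to its mean of 7.08 over all mice, and Mcm2 was 5.19, 5.02 and 5.12. Without mouse 2 the count was 4, without mouse 1 it was 11, and it was 11 with RNA quality as a covariate and 11 against the CXB strains alone. The 3′ minus 5′ difference of the RNA control probe sets was 0.299, 0.491 and 0.247 in its mice, against a median of 0.603 over all mice, and its part in the result was not tested.

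CXB12/HiAJ had 17 members higher, against 1.3% of genes, in 2 mice. Mki67 was 7.84 and 7.61 (difference 1.62), Cdc20 was 7.49 and 6.93 (1.60) and Ccna2 was 7.47 and 7.13 (1.42). Without mouse 1 no member was called, without mouse 2 it was 3, and the count was 7 against the CXB strains alone. BXD61/RwwJ had 12 members higher, against 0.965%, and its 2 mice stood apart from each other. Aurka differed from the other strains by 1.49, Rrm2 by 1.47 and Nusap1 by 1.23, while Cdc20, at 6.47 and 7.88, was not called. The cell cycle score was 0.816 in mouse 1 and 2.23 in mouse 2, the highest of any mouse. The count was 0 without mouse 2, 6 without mouse 1 and 3 with the mouse number as a covariate. BXA14/PgnJ had 19 members higher, against 7.31%, with Ube2c at 7.15, 6.61 and 6.40 (1.21), Cdc20 at 7.20, 6.90 and 6.20 (1.15) and Kif20a at 5.22, 5.17 and 4.75 (1.05). It was 1 without mouse 1, 5 without mouse 2, 12 with the mouse number and 1 against the AXB/BXA strains alone.

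Strains that founded the panels were compared with C57BL/6J. Limma called 0 of 34 members in A/J (n = 3, background 10.5% of genes), 0 in DBA/2J (n = 3, 2.1%), 1 in BALB/cJ (n = 3, 9.72%) and 0 in C3H/HeJ (n = 2, 8.53%), each against 2 C57BL/6J mice. The call in BALB/cJ was Prc1, at 4.53 against 3.62, 0.91 ± 0.28 (SE) higher (adjusted p = 0.0313), and it was lost when any BALB/cJ mouse or C57BL/6J mouse 1 was left out. An unadjusted p under 0.05 was reached by 1 member in A/J, 2 in DBA/2J, 3 in BALB/cJ and 13 in C3H/HeJ, all of them higher than C57BL/6J, while 23.2%, 12.1%, 23.0% and 22.8% of all genes reached it. In C3H/HeJ 30 of 34 members lay above C57BL/6J, with a median difference of 0.61 on the log2 scale against 0.01 over all genes. Birc5 was 6.20 and 6.37 in C3H/HeJ against 4.74 and 4.84 in C57BL/6J (difference 1.495, adjusted p = 0.131), and Mki67 was 6.83 and 7.40 against 5.66 and 6.15 (difference 1.21, adjusted p = 0.224). The mice of these groups did not overlap for either gene, but each group had only 2 mice. Neither gene was called, and the share of all genes without overlap is not given. DBA/2J had a median difference of -0.01, with Cdk1 at 5.03, 5.45 and 5.37 against 4.92 and 5.43. With these 5 strains fitted alone, the counts were 0, 2, 11 and 15, all higher. The share of all genes called in that fit is not given, so these counts have no background.

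Other genes of the pathway were read from lists that overlap none of the 34 members. Mitosis and cytokinesis gave 35 of 44 genes called across strains, DNA replication 26 of 33, checkpoint and mitotic entry 9 of 11, CDK inhibitors 7 of 8, G1 cyclins and CDKs 6 of 7, E2F, RB and DREAM genes 10 of 17 and liver regeneration and fetal liver 9 of 12, against 59.2% of all genes. Of genes above the median signal, 87.1% were called, and 14 of the 44 mitosis genes and 8 of the 33 replication genes lay below that median. Of the mitosis list, the highest shares belonged to Pttg1 (securin, 0.881), Ncapg2 (0.643) and Smc4 (0.618), and the last of these are condensin subunits. Pttg1 stood outside the common movement, with r = 0.18 to the cell cycle score over strain means, and Smc4 followed it with r = 0.94. Of the replication list the highest were Mcm10 (0.676), Pcna (0.626) and Dbf4 (0.580). Pcna, the sliding clamp of replication, had r = 0.68 and Dbf4, which activates the Cdc7 kinase, r = 0.88, while Mcm10 ran against the members, with r = -0.59.

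Of the CDK inhibitors, Cdkn2c (p18, share 0.641), Cdkn1c (p57, 0.622) and Cdkn1a (p21, 0.510) had the highest shares, with r to the cell cycle score of 0.67, 0.23 and 0.49. Cdkn3, a phosphatase of CDKs that is itself expressed in dividing cells, had r = 0.87. The cyclins and kinases of G1 differed among themselves in their r to the score. Cdk6 (share 0.593), Ccnd2 (0.562) and Ccnd3 (0.495), which had the highest shares, had r of 0.32, 0.48 and -0.58. The highest r of the 7 was 0.57 for the kinase Cdk4, and Ccnd1, a cyclin of liver regrowth, had -0.03, Cdk2 -0.05 and Ccne1 0.08. Among the regulators, Rbl2 (share 0.646), Rbl1 (0.526) and Tfdp1 (0.524) led, with r of -0.33, 0.77 and 0.44. In this group E2f1, E2f4 and Mybl2 were not called (adjusted p of 0.627, 0.946 and 0.225), and 3 of its 17 genes lay below the median signal. Wee1 (0.560), Mdm2 (0.558) and Gadd45b (0.511) led the checkpoint list, with r of 0.10, 0.61 and 0.53. The regeneration list was led by Cd24a (share 0.747, r = 0.74), Ccn2 (0.579, r = 0.51) and Hbegf (0.564, r = 0.44), and α-fetoprotein (Afp) was not called.

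In the 8 strains, mitosis and cytokinesis genes outside the set were called on the same side as the members. Of 44, 21 were lower in BXD55/RwwJ, 12 in BXD50/RwwJ, 11 in BXD5/TyJ and 13 in FVB/NJ. Higher were 23 in CXB8/HiAJ, 14 in CXB12/HiAJ, 14 in BXA14/PgnJ and 12 in BXD61/RwwJ. The shares of all genes called lower were 14.1%, 9.75%, 5.91% and 8.34%, in the same order. Those called higher were 4.81%, 1.3%, 7.31% and 0.965%. On the opposite side there were 2 in BXD50/RwwJ (Kif15 and Pttg1) and 1 in BXD5/TyJ (Pttg1), and none in the others. Replication genes were called lower in 12 of 33 in BXD55/RwwJ, among them Pcna, Cdt1, Dbf4 and Fen1, with 2 higher (Mcm10 and Orc1). In CXB8/HiAJ, 4 of 8 CDK inhibitors were higher (Cdkn1a, Cdkn2c, Cdkn2d and Cdkn3). Of 7 G1 cyclins and CDKs, 3 were lower there (Ccnd1, Ccnd2 and Ccnd3). Of 45037 probe sets, 1613 were higher and 1468 lower in that strain.

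The 15 genes outside the set whose strain means followed the cell cycle score most closely were Aspm, Pbk, Hmmr, Anln, Cenpf, Smc4, Shcbp1, Smc2, Cep55, Stmn1, Ckap2, Nek2, Arhgap11a, Ttk and Cdca5. Their r over the 96 strains ran from 0.96 for Aspm, a spindle pole protein, to 0.88 for Cdca5 (sororin, which protects cohesion of chromatids). All but Arhgap11a and Cdca5 were on the mitosis list. Among 17063 genes outside the set, 11 had an r above 0.9, 48 above 0.8 and 920 below -0.5.

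Marker lists of liver cell types varied with the cell cycle score. Over the 96 strain means the mean z-score of 8 cholangiocyte markers had r = 0.72 (rho = 0.72) with it, and 12 stellate cell and fibroblast markers had r = 0.71 (rho = 0.72). For 18 macrophage and Kupffer cell markers r was 0.54 (rho = 0.53), for 8 neutrophil markers 0.26, for 7 B cell and plasma cell markers 0.11, for 15 T and NK cell markers -0.07, for 7 erythroid markers -0.28, for 11 endothelial markers -0.35 and for 10 hepatocyte markers -0.57. Leaving out the 2 strains farthest from the median score, CXB12/HiAJ and BXD61/RwwJ, gave 0.72, 0.70, 0.57 and -0.60 for cholangiocyte, stellate cell, macrophage and hepatocyte markers. Among mice of one strain the same relations were weaker, with r of 0.31, 0.39, 0.32 and -0.33, while the mitosis list kept 0.96. Across strains, all 8 cholangiocyte, 12 stellate cell, 18 macrophage and 11 endothelial markers were called. So were 8 of 10 hepatocyte, 8 of 15 T and NK cell, 6 of 7 B cell, 6 of 8 neutrophil and 3 of 7 erythroid markers. The background was 59.2% of all genes and 87.1% of genes above the median signal. At most 1 cholangiocyte, stellate cell, macrophage, endothelial or hepatocyte marker per list lay below that median, so their counts lay near the background of brighter genes. The part of these cells in the values of the 34 genes was not tested.

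**Figure D5:**
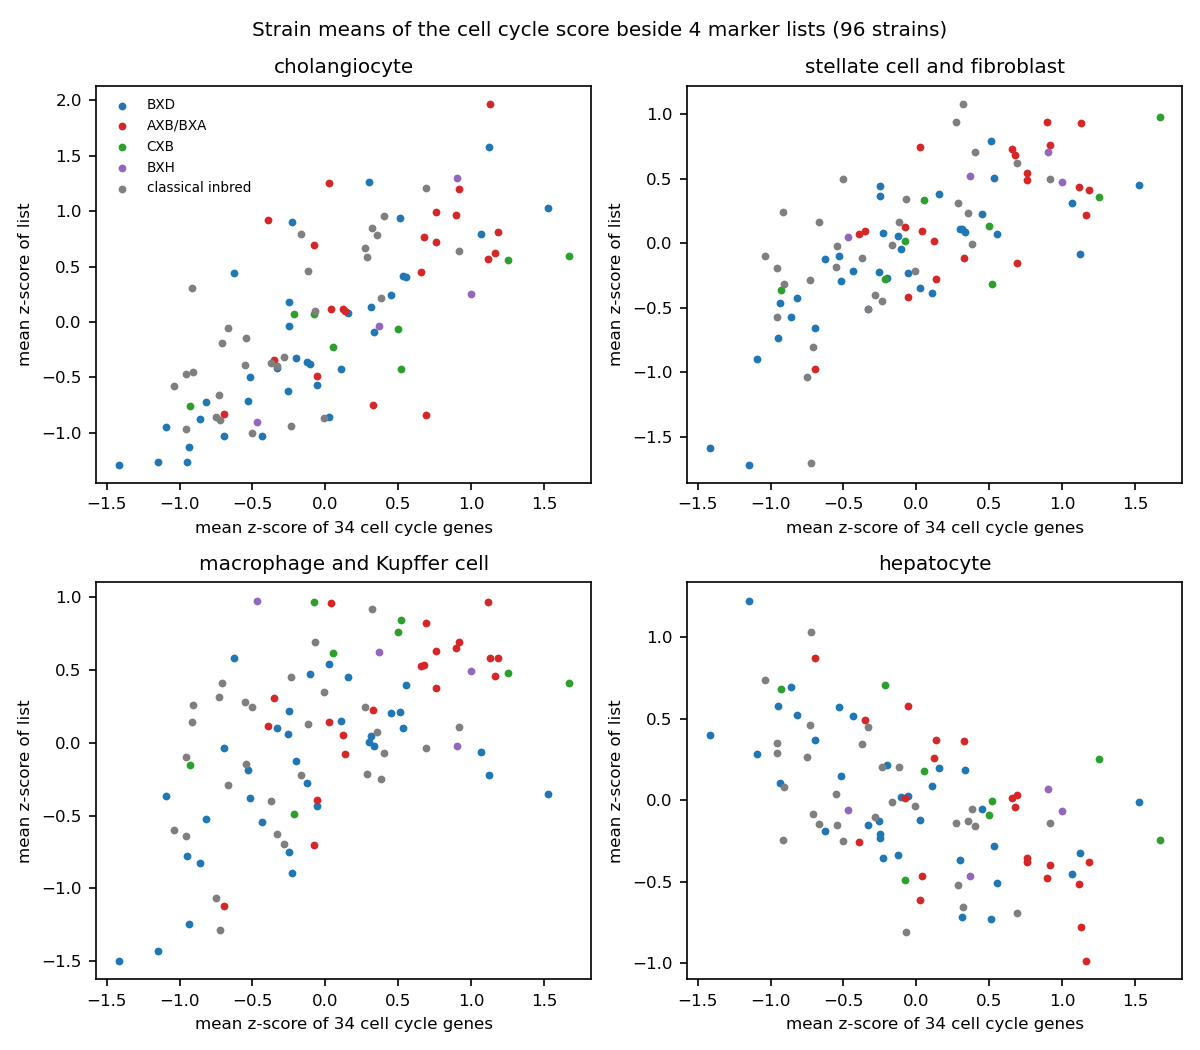
Each point is 1 of 96 strains, colored by panel, with the mean z-score of the 34 cell cycle genes on the x axis and that of a marker list on the y axis. Cholangiocyte and stellate cell lists have r = 0.72 and 0.71 with the score, the macrophage list 0.54 and the hepatocyte list -0.57.

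Within the lists, 7 of 8 cholangiocyte markers had an r above 0.5, among them Epcam (0.75), Cldn7 (0.74) and Krt19 (0.71), with Krt23 as the exception (-0.02). Of the stellate cell markers 7 of 12 did so, led by the matrix genes Lum (0.79), Col3a1 (0.74) and Col1a1 (0.74), while Lrat, Reln, Des and Rgs5, markers of resting stellate cells and pericytes, lay between -0.08 and 0.09. Of the macrophage markers 10 of 18 did so, with Cd9 (0.70), Cd14 (0.66) and Trem2 (0.55) high while 4 were below 0, Clec4f (-0.35), Timd4 (-0.25), Vsig4 (-0.20) and Marco (-0.13). Other markers of resident Kupffer cells, Cd5l (0.20) and Adgre1 (0.30), were above 0.

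In the single strains these lists moved as well, and their part in the calls was not tested. Of all genes, 14.1% were called lower in BXD55/RwwJ, 9.75% in BXD50/RwwJ, 5.91% in BXD5/TyJ and 8.34% in FVB/NJ. Called higher were 7.31% in BXA14/PgnJ, 4.81% in CXB8/HiAJ, 1.3% in CXB12/HiAJ and 0.965% in BXD61/RwwJ. Shares of genes for calls on the opposite side are not given. The mean log2 level of the cholangiocyte list was between 3.51 and 3.95 in the mice of BXD55/RwwJ, 3.61 and 4.02 in BXD50/RwwJ, 3.82 and 4.22 in BXD5/TyJ and 3.81 and 4.23 in FVB/NJ, against strain means with a median of 4.81 and a range from 3.80 to 5.96 in the 88 strains not named, and 6 of 8 of its genes were called lower in each of the 4 strains. It was between 6.10 and 6.55 in BXA14/PgnJ, where 7 of 8 were called higher, and between 4.84 and 5.54 in CXB8/HiAJ and 5.12 and 5.42 in CXB12/HiAJ, where 1 of 8 was called in each. In BXD61/RwwJ it was between 5.59 and 5.63, and 2 of 8 were called higher (Krt19 and Sox9). Of 12 stellate cell markers, 9 were lower in BXD55/RwwJ, 7 in BXD50/RwwJ, 5 in BXD5/TyJ and 3 in FVB/NJ, and 5 were higher in BXA14/PgnJ, 2 in CXB12/HiAJ and 1 in CXB8/HiAJ. Of 10 hepatocyte markers, 5 were higher in BXD50/RwwJ, 1 in BXD5/TyJ (Cyp2e1) and 1 in CXB8/HiAJ (G6pc). Of 45037 probe sets, 2516 were higher in BXD50/RwwJ and 1244 in BXD5/TyJ. Of 18 macrophage markers, 14 were lower in BXD55/RwwJ, 12 in BXD50/RwwJ, 9 in FVB/NJ and 2 in BXD5/TyJ. The count in BXD5/TyJ lay near the share of all genes. Others of the list were higher in these strains, Marco (log2 difference 3.42) and Timd4 (1.89) in BXD50/RwwJ and Clec4f (1.22) and Timd4 (1.49) in FVB/NJ. Among the high strains, 2 were higher in BXA14/PgnJ (Cd14 and Cd9), 2 were higher (Vsig4 and Cd9) and 1 lower (Timd4) in CXB8/HiAJ, none was called in CXB12/HiAJ, and 2 were lower in BXD61/RwwJ (Clec4f and Timd4). Of 8 neutrophil markers, 3 were higher in CXB12/HiAJ (Ngp, Camp and Mpo) and 2 in CXB8/HiAJ (Ngp and Ltf), while S100a8 was lower in BXD50/RwwJ, BXD55/RwwJ and the high strain BXD61/RwwJ, and S100a9 was lower in BXD50/RwwJ.

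RNA quality, read as the 3′ minus 5′ difference of the Gapdh and β-actin control probe sets, ran from 0.224 to 1.26 and had a share of variance between strains of 0.714. The cell cycle score had r = -0.25 and rho = -0.30 with it over the 220 mice, -0.26 over strain means and -0.14 within strains, and r = -0.03 with the number in the mouse label. With RNA quality as a covariate 32 of 34 members were called across strains, and the share of all genes in that fit is not given.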

How the data were processed

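Liver RNA of 220 mice was measured on Affymetrix HT MG-430 PM arrays. The authors deposited log2 values after RMA, and their processing notes name GCOS and RMA without versions. Probe sets were named from GEO's platform annotation: 28898 carried 1 symbol, 551 several and 15588 none here, and 104 array controls were left out. The deposited table held 0 columns of other samples. Probes are short, so maternal variants under them can alter a signal. Arrays carry no read depth, and the number of mice limits the precision. Strains, panels and progenitors were compared with limma 3.58.1 in R 4.3.3 (lmFit and eBayes, two-sided), adjusted by Benjamini-Hochberg over 45037 probe sets and called at an adjusted p under 0.05. The labels do not say that mice of a strain came from separate litters, so p-values measure the spread between these mice. Scores, correlations and motifs were computed in Python 3.11.15 and have no test. The scripts were tested on simulated data.

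All members were named, with up to 10 called members in the other comparisons, the 3 strains at each end of the score and up to 8 strains with 5 or more calls in 1 direction, the 3 called genes with the highest share of each pathway list and the 15 genes closest to the score. Other genes of these lists were named after their values were seen. Members and lists were chosen with earlier results of these data known. Alternatives changed the filter, scaling, probe set rule, covariates, reference strains and mice entered.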

Additional observations from a re-analysis of the deposited data

Results flagged for a closer look

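Of 102 groups of 4 to 10 values examined, 3 held a value far from the others, and chance flags about 1 group in 20. Over the 8 CXB strain means, Mcm2 was lowest in CXB13/HiAJ at 4.39, where the nearest strain was at 5.11, and the gap was 0.558 of the whole range. In BXD20/TyJ, the strain with 4 mice, mouse 1 was highest for Mcm6 at 7.40 with the nearest mouse at 6.73 (0.844 of the range), and mouse 2 was lowest for Kif11 at 3.18 with the nearest at 3.26 (0.945 of the range).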

How the results depend on the processing

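Of the counts of members called, those across strains stayed between 28 and 32 under the filter on dim probe sets, the array median, the gene mean and both covariates. Shares of all genes called under the alternatives are not given. With RNA quality as a covariate the count was 5 within AXB/BXA, 7 within CXB, 0 in BALB/cJ, 11 in CXB8/HiAJ and 5 in FVB/NJ. With the mouse number as a covariate it was 0 within CXB, 2 within BXH, 0 in BALB/cJ, 12 in BXA14/PgnJ, 3 in BXD61/RwwJ and 1 in FVB/NJ. With the mean over all probe sets of a gene it was 0 in BALB/cJ and 2 in C3H/HeJ, and with only probe sets above the median signal it was 1 in C3H/HeJ. With the progenitor strains fitted alone it was 2 in DBA/2J, 11 in BALB/cJ and 15 in C3H/HeJ, without a share of all genes beside it. Against strains of the same panel, with fewer strains, it was 1 in BXA14/PgnJ, 3 in BXD5/TyJ, 7 in CXB12/HiAJ, 11 in CXB8/HiAJ and 3 in FVB/NJ. Leaving out replicates gave 19 to 32 across strains, 2 to 27 within BXD, 2 to 16 within AXB/BXA, 0 to 3 within CXB, 4 to 22 within the classical strains, 92 to 186 for all members called in strain against other strains, 0 to 1 in BALB/cJ, 1 to 16 in BXA14/PgnJ, 1 to 13 in BXD5/TyJ, 0 to 13 in BXD50/RwwJ, 9 to 23 in BXD55/RwwJ, 0 to 15 in BXD61/RwwJ, 0 to 21 in CXB12/HiAJ, 1 to 22 in CXB8/HiAJ and 1 to 10 in FVB/NJ; leaving out replicate 1 or 2 drops strains with 2 mice by construction. That drop holds only for the tests across strains and within panels. In the comparisons of a strain with the other strains, strains with 2 mice kept both when a replicate number was left out. Leaving out single mice of the 8 strains was chosen after seeing the data. Within BXH the fits without replicate 1 or 2 were not run. Apart from what these alternatives construct, the cause was not tested. No single member reversed its direction. No paired analysis was possible because the replicate numbers were given in accession order and pair no mice across strains.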

Other observations

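Chosen after their values were seen, the genes with the lowest correlation to the cell cycle score over 96 strain means were Ppara (r = -0.79), a nuclear receptor of fatty acid oxidation, Aspdh (-0.78), Lin7a (-0.78), Dgat2 (-0.78), an enzyme of triglyceride synthesis, and Apoa5 (-0.77). Within strains their r was -0.46, -0.48, -0.51, -0.48 and -0.34.

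Mice of one strain could lie far apart. The range of the score within a strain had a median of 0.626 and a highest value of 2.76, in BXD18/TyJ, whose mice had scores of -1.41, 0.97 and 1.35. In CXB3/ByJ the mice had scores of 0.96 and -1.39.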
